A study of Mus musculus with 21 samples.

Results

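The Purkinje cell marker genes described here were Pcp2, Pcp4, Calb1, Car8, Rora, Homer3, Ppp1r17, Slc1a6 and Dner, followed in microarray data from Cstb-/- and control mouse cerebellum and from cultured cerebellar granule cells. All probe sets annotated to one of these 9 symbols alone were taken, which gave 25 probe sets of 45037 tested and 9 genes of 18193. Rora had 9 probe sets, Calb1 had 4, Pcp2 and Car8 had 3 each, Dner had 2, and Pcp4, Homer3, Ppp1r17 and Slc1a6 had 1 each. None of the 25 probe sets changed between the genotypes in P7 or P30 cerebella, and in the cultures 1 of them, for Rora, fell in Cstb-/- cells. Over all probe sets, 0.00666% changed at P7, 0.144% at P30 and 2.54% in the cultures. The Rora call was close to its threshold and was lost in most fits with a single array left out.

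Purkinje cells are the only neurons that carry signals out of the cerebellar cortex, and they do so by GABAergic inhibition of the deep nuclei. Each receives excitation from the parallel fibres of granule cells and from a climbing fibre, and its firing depends on tightly buffered calcium, on metabotropic glutamate receptor signalling and on glutamate uptake at its spines. In mice the cells are postmitotic before birth and extend their dendrites during the first postnatal weeks, so the marker genes are commonly used to follow Purkinje cell maturation and loss.

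Cystatin B (CSTB) inhibits cysteine proteases of the cathepsin family, and its loss in mice models progressive myoclonus epilepsy of Unverricht-Lundborg type. The Cstb-/- arrays came from mice that lack CSTB in every tissue, and the control arrays came from wild type littermates, both on the 129SvJ background. Whole cerebella were taken at postnatal day 7 (P7; 4 Cstb-/- arrays, 3 labelled male and 1 female, against 4 control arrays, 1 labelled male and 3 female) and at P30 (3 Cstb-/- arrays, 2 labelled male and 1 female, against 3 control arrays, all labelled male). Cerebellar granule cell cultures were made from P5 pups without meninges, treated with AraC against dividing cells and harvested after 2 days in vitro (3 Cstb-/- against 4 control arrays). The labels number the arrays but tie none to an animal or culture, so the p-values measure the spread between these samples.

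Values are log2 signals from which the median of each probe set had been subtracted within each experiment, so a value says how far an array lies from the middle array and not how strongly the gene was expressed. Whether Purkinje cell RNA was abundant in the cultures could therefore not be read, and neither could the presence of defining markers on any array. A probe set was counted as changed at a difference of 1.3-fold or more (0.38 on the log2 scale) in limma, where the adjusted p also had to be below 0.05 for cerebella and below 0.01 for cultures, with Benjamini-Hochberg adjustment over all 45037 probe sets. In whole tissue, fewer Purkinje cells and less RNA per Purkinje cell cannot be told apart.

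The arrays were first checked against their labels. Both Cstb probe sets were lower on every Cstb-/- array than on every control array, between -2.11 and -1.05 against 1.05 and 1.57 at P7, between -1.42 and -1.29 against 1.29 and 1.57 at P30, and between -2.07 and -1.70 against 0.00 and 0.24 in the cultures. Sex genes (Xist, Eif2s3y) matched the labels at P7. They showed no difference among the P30 arrays although Cstb-/- array 1 was labelled female, and the paper describes the P30 mice as all male. They went against the labels on Cstb-/- culture arrays 1 and 2, while control culture arrays 7 and 8 held both signals. A pair of libraries stood apart in spread, P7 Cstb-/- array 5 (SD 0.23 over all probe sets, with ribosomal RNA control probe sets at a mean of 3.39) and P7 control array 3 (SD 0.225), against SDs of 0.122 to 0.166 on the other P7 arrays. In the cultures Cstb-/- arrays 1, 2 and 3 had SDs of 0.34, 0.235 and 0.309, against 0.137 to 0.252 on control arrays. In the cultures, 51.3% of all probe sets held tied arrays, and member probe sets were at exactly 0 on 1 to 5 of the 7 arrays.

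At P7, 0 of the 25 probe sets changed, where the background was 0.00666% of all probe sets tested by limma. The differences lay between -0.24 and 0.34, with 13 probe sets above 0 and 12 below, and their median was 0.01, as was that of all probe sets. An unadjusted p under 0.05 was reached by 3 of the 25, against 9.45% of all probe sets. The 95% interval of the difference stayed within 1.3-fold in either direction for 17 of the 25, against 77.9% of all probe sets, and within 2-fold for all 25.

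At P30, again 0 of the 25 probe sets changed, against a background of 0.144%. The differences lay between -0.34 and 0.52, 13 of them above 0 and 12 below, with a median of 0.02 beside -0.01 for all probe sets. An unadjusted p under 0.05 was found for 3 of the 25, against 7.72% of all probe sets. The interval stayed within 1.3-fold for 19 of the 25, against 81.1% of all probe sets, and within 2-fold for all 25.

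In the granule cell cultures 1 of the 25 probe sets changed, for Rora and downward, against a background of 2.54% of all probe sets in either direction and 0.469% downward. The spread was wider than in the cerebella, from -1.17 to 1.15, with 14 probe sets above 0 and 11 below and a median of 0.02 beside -0.02 for all probe sets. An unadjusted p under 0.05 was reached by 8 of the 25, against 31.6% of all probe sets; 3 of them were higher in Cstb-/- cultures, against 18.3%, and 5 lower, against 13.3%. The interval stayed within 1.3-fold for 12 of the 25, against 42.7% of all probe sets, and within 2-fold for 23.

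**Figure D1:**
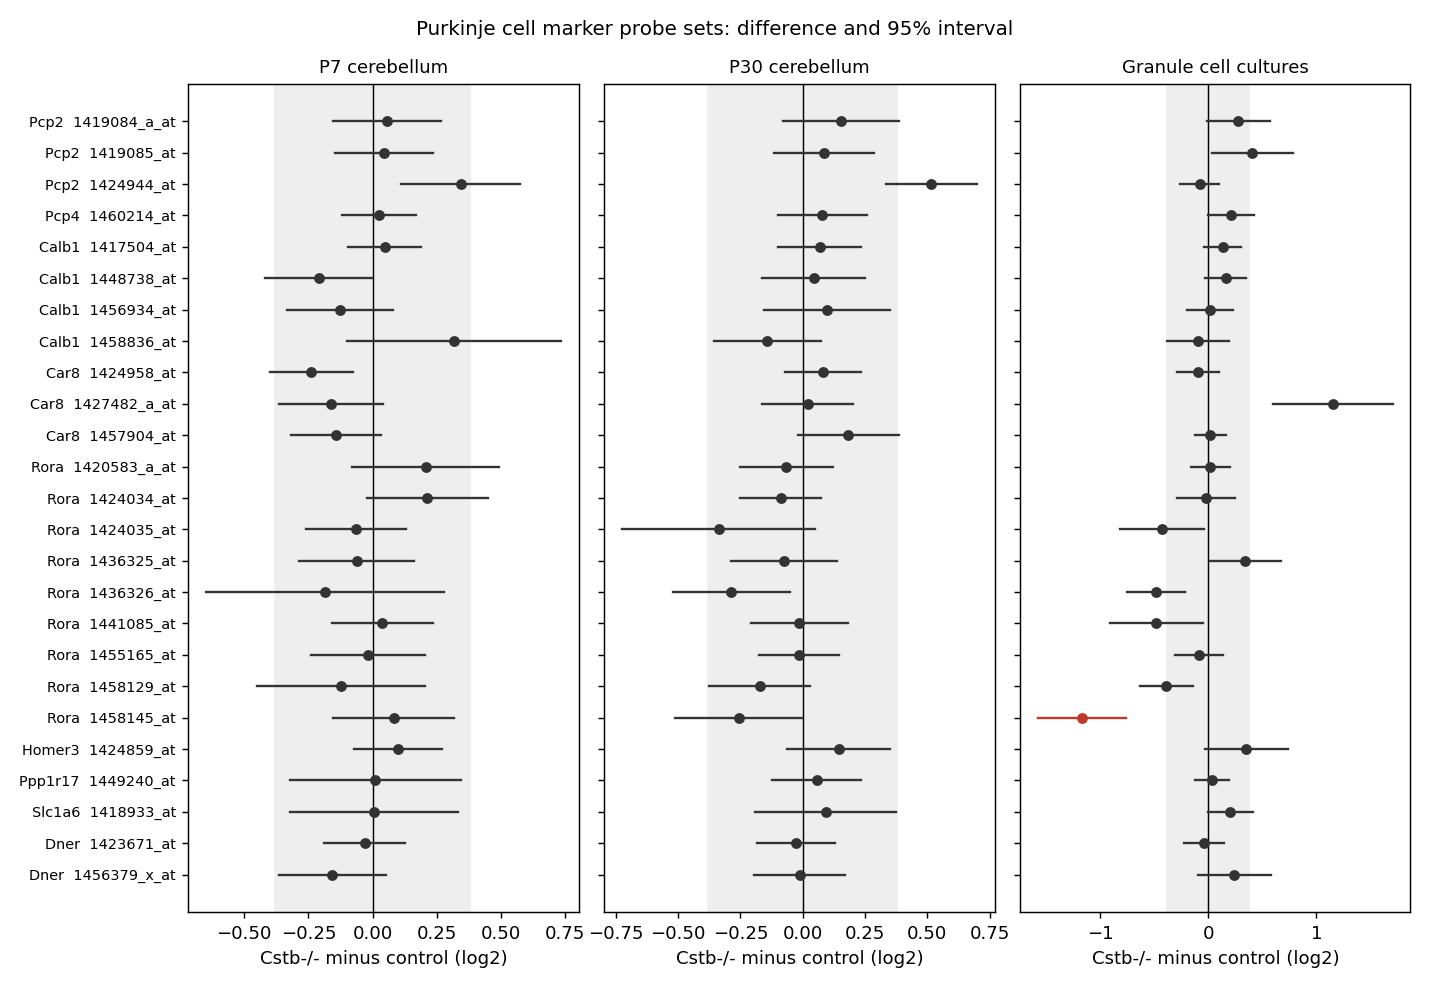
Difference between Cstb-/- and control arrays (x axis, log2) for each of the 25 Purkinje cell marker probe sets (rows) in P7 cerebella, P30 cerebella and granule cell cultures, with 95% intervals from limma; grey marks differences within 1.3-fold and red the probe set that changed. The Pcp2 probe set 1424944_at lies at 0.34 and 0.52 in the cerebella, and in the cultures the Rora probe set 1458145_at lies at -1.17 and the Car8 probe set 1427482_a_at at 1.15; the x axes differ in scale.

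Pcp2, also called L7, encodes a modulator of inhibitory G proteins that is made almost only in Purkinje cells and in retinal bipolar cells. Its 3 probe sets differed in the size of their differences. With 1424944_at, Cstb-/- cerebella at P7 had values of 0.08, 0.02, 0.39 and 0.45, against -0.24, -0.04, -0.02 and -0.13 in control cerebella. At P30 the values were 0.19, 0.37 and 0.20 in Cstb-/- cerebella, against -0.34, -0.19 and -0.25 in control cerebella.

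At both ages every Cstb-/- array thus lay above every control array, by a wide margin at P30 and at P7 by little for Cstb-/- arrays 1 and 2. Member arrays did not overlap for 1 of 25 probe sets at P7, against 5.65% of all probe sets, and for 3 of 25 at P30, against 12.5%. The difference was 0.34 at P7 (SE 0.11, limma adjusted p = 0.412) and 0.52 at P30 (SE 0.08, 95% interval 0.33 to 0.70, limma adjusted p = 0.0684), a 1.43-fold higher signal that missed the threshold. It passed it under 3 of the alternatives, with adjusted p = 0.0303 with array weights, 0.0306 with 1 limma fit over all arrays and 0.0214 with the methods' t-test on the probe sets past the fold. The difference between the 2 ages, 0.17 (95% interval -0.14 to 0.48), was not past the threshold (limma adjusted p = 0.708). The paper lists 1424944_at among the probe sets higher at P7, past its cut-off of 1.3-fold, whereas the P7 difference here was 1.27-fold.

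The other Pcp2 probe sets, 1419084_a_at and 1419085_at, showed smaller differences, 0.06 and 0.05 at P7 and 0.15 and 0.09 at P30, and their arrays overlapped. At P30, 1419084_a_at read 0.13, 0.09 and -0.09 in Cstb-/- cerebella, against -0.19, 0.09 and -0.22 in control cerebella. Within each array, 1424944_at lay 0.08 to 0.29 above the mean of the other 2 probe sets in P30 Cstb-/- cerebella and between -0.28 and -0.06 relative to it in P30 control cerebella, and since the probe set was singled out for its values this gap was not tested. Where on the transcript each probe set lies is not given in the sources used here. The mean of the 3 probe sets differed by 0.15 at P7 (SE 0.07) and by 0.25 at P30 (SE 0.08), with limma adjusted p = 0.48 and 0.452.

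In the cultures the order was different. There 1424944_at differed by -0.08 (SE 0.08), with Cstb-/- values of -0.07, 0.00 and -0.07 against 0.15, 0.00, 0.06 and -0.08 in control cultures. The other 2 probe sets, 1419084_a_at and 1419085_at, differed by 0.28 (limma adjusted p = 0.174) and 0.41 (limma adjusted p = 0.129). No Pcp2 probe set passed the threshold in the cultures.

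**Figure D2:**
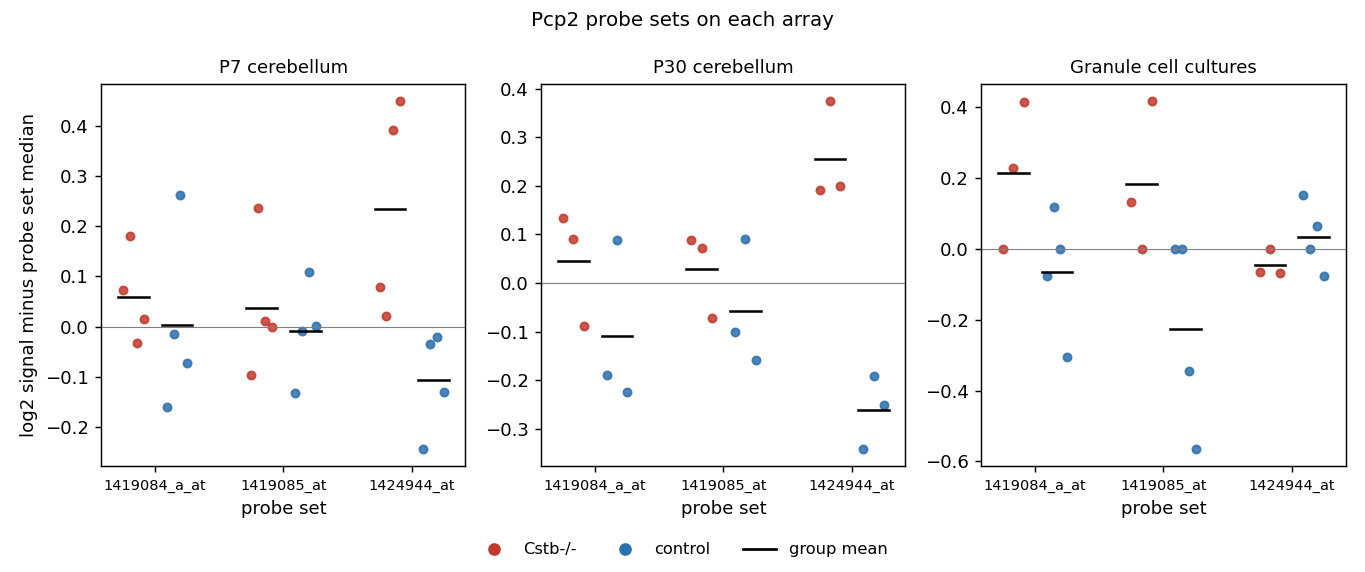
Values of the 3 Pcp2 probe sets (x axis) on each array (points, log2 signal minus the probe set median; bars, group means) for Cstb-/- (red) and control (blue) arrays of P7 cerebella, P30 cerebella and granule cell cultures. For 1424944_at all Cstb-/- points lie above all control points at P7 and P30, whereas the points of the other 2 probe sets overlap.

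Rora encodes a nuclear receptor that Purkinje cells need to mature, and its loss in the staggerer mouse leaves the cells stunted. In the cultures its probe set 1458145_at fell in Cstb-/- cells. The values were -1.09, -1.01 and -0.43 in Cstb-/- cultures, against 0.47, 0.42, 0.00 and 0.39 in control cultures. Every Cstb-/- array lay below every control array, and the difference was -1.17 (SE 0.18, 95% interval -1.57 to -0.76, limma adjusted p = 0.00752), or 2.24-fold lower. The call was close to its threshold, and with single arrays left out the adjusted p ranged from 0.00641 without Cstb-/- array 3, the only such case under 0.01, to 0.0353 without control array 8, while the difference stayed between -1.37 and -1.04. The methods' t-test ended the call, with an adjusted p of 0.0782 over all probe sets and 0.0172 over those past the fold. A fit over all experiments left out the 4 culture arrays whose sex genes went against or mixed their labels. It leaves 1 Cstb-/- and 2 control culture arrays, so only differences are given. They were -0.88 for 1458145_at of Rora and 1.34 for 1427482_a_at of Car8.

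The other 8 Rora probe sets did not pass the threshold in the cultures and were not uniform. Those with negative differences included 1436326_at at -0.48 (SE 0.12, limma adjusted p = 0.0383), 1441085_at at -0.48 (SE 0.19, adjusted p = 0.126), 1424035_at at -0.42 (SE 0.17, adjusted p = 0.133) and 1458129_at at -0.39 (SE 0.11, adjusted p = 0.0578), again by limma. With 1436326_at, Cstb-/- cultures read -0.46, -0.23 and -0.29, against 0.43, 0.13, 0.00 and 0.06 in control cultures. The arrays of 1436326_at and 1458129_at did not overlap between the genotypes either. With 1436325_at the difference was positive, 0.34 (SE 0.14), and its arrays too did not overlap, from 0.03 to 0.35 in Cstb-/- cultures and from -0.50 to 0.00 in control cultures. Over the 25 member probe sets, arrays did not overlap for 4 that were higher and 3 that were lower in Cstb-/- cultures, where the background was 13.4% of all probe sets for higher, 9.33% for lower and 22.8% in all. The mean of the 9 Rora probe sets differed by -0.30 (SE 0.07, limma adjusted p = 0.0182 over genes).

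In P30 cerebella all 9 Rora differences were below 0 and none passed the threshold, with a mean over the probe sets of -0.15 (SE 0.08, limma adjusted p = 0.72). The largest in size were those of 1424035_at (-0.34), 1436326_at (-0.29), 1458145_at (-0.26) and 1458129_at (-0.17). For 1424035_at the values were -0.56, 0.16 and -0.50 in Cstb-/- cerebella, against 0.07, 0.12 and -0.07 in control cerebella. For 1458145_at they were -0.39, 0.04 and -0.31 in Cstb-/- cerebella, against 0.08, -0.04 and 0.09 in control cerebella. Cstb-/- arrays 1 and 3 were low with these 4 probe sets and Cstb-/- array 2 was not. Choroid plexus markers were low on the same 2 arrays, with means over their 20 probe sets of -2.14, 0.97 and -2.06 on Cstb-/- arrays 1, 2 and 3, against 0.28, -0.30 and 0.96 on control arrays, and their part in the Rora values was not tested.

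At P7 no Rora probe set reached an unadjusted p of 0.05, and the differences lay between -0.18 and 0.21. Control array 3 set much of the spread. It read 0.94 with 1436326_at and 0.67 with 1458129_at, where the other control arrays lay between -0.17 and 0.04, and it read -0.55 with 1420583_a_at and -0.50 with 1424034_at, where the other control arrays lay between -0.16 and 0.10. Without this array and Cstb-/- array 5, which stood apart in spread, still 0 of the 25 member probe sets changed at P7.

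Across the 14 cerebellar arrays, with each value taken relative to the mean of its genotype and age, the Rora probe sets were correlated in some pairs above 0 and in others below 0. Average linkage on 1 minus the correlation, stopped at 3 parts, joined 6 probe sets (1424035_at, 1436325_at, 1436326_at, 1455165_at, 1458129_at and 1458145_at), which correlated with each other at 0.34 to 0.95 (15 pairs). The probe sets 1420583_a_at and 1424034_at correlated at 0.81 and formed the second part, and 1441085_at stood alone. Between the 6 and the 2 probe sets the correlations ran from -0.70 to -0.04 (12 pairs). The pairs share arrays, and P7 control array 3 is extreme in both parts, so the correlations are a description.

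**Figure D3:**
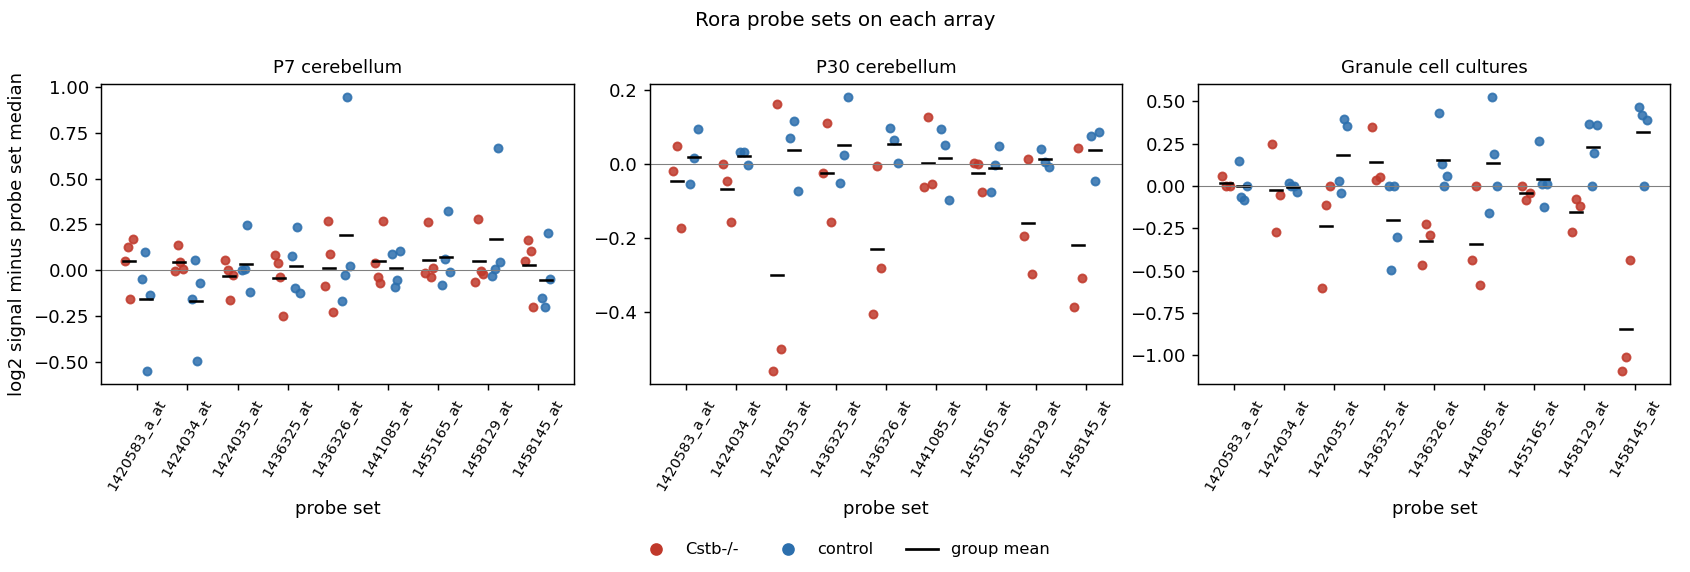
Values of the 9 Rora probe sets (x axis) on each array (points, log2 signal minus the probe set median; bars, group means) for Cstb-/- (red) and control (blue) arrays. In the cultures the Cstb-/- points of 1458145_at lie between -1.09 and -0.43 and the control points between 0.00 and 0.47; at P30 the low Cstb-/- points of 1424035_at, 1436326_at, 1458129_at and 1458145_at come from arrays 1 and 3; the y axes differ in scale.

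The receptor encoded by Rora binds DNA at the core motif AGGTCA, and Purkinje cell genes including Pcp2 are known targets. This motif was looked for on both strands in RefSeq promoter windows (GRCm38.p6, 250 bases before to 50 after a transcript start), which the reference held for 6 of the 9 genes, Pcp2, Pcp4, Rora, Homer3, Slc1a6 and Dner. It occurred in 4 of the 6 genes, against 18.1% of all 27025 genes in the reference, and in 6 of their 9 windows, against 16.3% of all 32851. Of these 6 windows 3 are of Pcp2, and 2 of those overlap and hold the same match. Windows of Rora and Slc1a6 held no match. A match is a run of letters and not a site known to be bound. The search took these 6 letters alone and asked nothing of the bases beside them. Whether the receptor acts on the genes with a match was not tested. The 4 genes with a match are shown with 1 window each, from 250 bases before to 30 after the start. Windows run in the direction of the gene. Capitals mark the 6 letters, as AGGTCA or, on the opposite strand, TGACCT.
Pcp2 (chr8:3625518-3625797, minus strand, match at -12 from the start): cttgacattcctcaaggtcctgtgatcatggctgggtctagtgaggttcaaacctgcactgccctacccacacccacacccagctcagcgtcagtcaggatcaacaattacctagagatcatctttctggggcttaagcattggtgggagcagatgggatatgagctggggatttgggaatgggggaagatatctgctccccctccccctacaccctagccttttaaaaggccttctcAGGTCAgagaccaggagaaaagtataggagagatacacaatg
Pcp4 (chr16:96467356-96467635, plus strand, match at -164): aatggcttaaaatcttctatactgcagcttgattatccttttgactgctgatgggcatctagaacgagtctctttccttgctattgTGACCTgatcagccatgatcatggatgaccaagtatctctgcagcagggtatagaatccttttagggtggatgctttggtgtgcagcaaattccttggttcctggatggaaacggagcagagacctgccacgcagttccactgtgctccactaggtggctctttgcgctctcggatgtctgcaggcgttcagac
Homer3 (chr8:70282749-70283028, plus strand, match at -157): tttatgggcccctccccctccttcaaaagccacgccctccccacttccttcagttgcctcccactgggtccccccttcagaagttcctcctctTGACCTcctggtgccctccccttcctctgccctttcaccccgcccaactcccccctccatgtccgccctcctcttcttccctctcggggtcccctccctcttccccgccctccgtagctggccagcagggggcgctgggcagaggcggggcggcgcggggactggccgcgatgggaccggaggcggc
Dner (chr1:84696192-84696471, minus strand, matches at -111 and -2): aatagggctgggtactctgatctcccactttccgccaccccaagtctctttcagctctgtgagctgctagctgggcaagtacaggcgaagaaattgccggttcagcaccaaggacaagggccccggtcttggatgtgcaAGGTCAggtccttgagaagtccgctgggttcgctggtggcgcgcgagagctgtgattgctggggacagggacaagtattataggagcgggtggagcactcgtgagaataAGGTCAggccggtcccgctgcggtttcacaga

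In the cultures the probe sets of these 4 genes did not pass the threshold in either direction. Their differences were -0.08, 0.28 and 0.41 for Pcp2, 0.21 for Pcp4, 0.35 for Homer3, and -0.04 and 0.24 for Dner. Slc1a6, whose window held no match, differed by 0.20 and did not pass it either. A relation of these values to those of Rora was not tested.

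Calcium handling was represented by Calb1, Pcp4 and Car8. Calb1 encodes calbindin, the calcium buffer that fills Purkinje cell bodies and dendrites. Its probe set with the narrowest spread at P7, 1417504_at, read 0.00, 0.09, -0.03 and 0.02 in P7 Cstb-/- cerebella, against -0.00, 0.01, -0.10 and -0.02 in P7 control cerebella. At P30 it read 0.02, -0.02 and 0.02 in Cstb-/- cerebella, against -0.15, 0.03 and -0.06 in control cerebella. The differences were 0.05 (95% interval -0.09 to 0.19) and 0.07 (95% interval -0.10 to 0.24), both intervals within 1.3-fold, and in the cultures 0.13 (95% interval -0.04 to 0.31).

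The other 3 Calb1 probe sets varied more. For 1456934_at the differences were -0.13 at P7, 0.10 at P30 and 0.02 in the cultures, with overlapping arrays. The probe set 1448738_at had an unadjusted p just under 0.05 at P7, with -0.02, 0.05, -0.23 and -0.21 in Cstb-/- cerebella against -0.05, 0.20, 0.26 and 0.02 in control cerebella, a difference of -0.21 (limma adjusted p = 0.53). Its arrays overlapped, and at P30 and in the cultures it differed by 0.04 and 0.16. The probe set 1458836_at differed by 0.32 at P7 (95% interval -0.10 to 0.73), where control array 3 read -0.86 and the other control arrays read between -0.14 and 0.19, and by -0.14 at P30.

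Pcp4, or PEP-19, encodes a small protein that binds calmodulin and speeds its exchange of calcium. Its probe set 1460214_at had narrow spreads in the cerebella, with values from -0.03 to 0.08 in P7 Cstb-/- cerebella and from -0.09 to 0.05 in P7 control cerebella. The differences were 0.02 (95% interval -0.12 to 0.17) at P7 and 0.08 (95% interval -0.10 to 0.26) at P30. In the cultures it read 0.13, 0.01 and 0.16 in Cstb-/- cells, against 0.00, -0.17, -0.28 and 0.00 in control cells, which did not overlap, and the difference of 0.21 did not pass the threshold (limma adjusted p = 0.165).

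Car8 encodes a relative of the carbonic anhydrases that lacks their catalytic activity and dampens the release of calcium from internal stores. With 1424958_at, P7 Cstb-/- cerebella read -0.19, 0.00, -0.19 and -0.11, against -0.00, 0.17, 0.14 and 0.16 in P7 control cerebella. The lowest control array and the highest Cstb-/- array met near 0, and the difference was -0.24 (SE 0.07, 95% interval -0.40 to -0.08, limma adjusted p = 0.411). The other 2 Car8 probe sets at P7, 1427482_a_at and 1457904_at, differed by -0.16 and -0.14, and the mean of the 3 by -0.18 (SE 0.06, limma adjusted p = 0.364).

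At P30 the 3 Car8 differences were positive, 0.08, 0.02 and 0.18, and 1424958_at did not overlap between the genotypes, from 0.01 to 0.10 in Cstb-/- cerebella and from -0.06 to -0.01 in control cerebella. The P30 difference exceeded the P7 difference by 0.32 for 1424958_at (SE 0.10, limma adjusted p = 0.293) and by 0.33 for 1457904_at (SE 0.12, limma adjusted p = 0.389). Neither passed the threshold, and 0 of the 25 member probe sets did so in this contrast of the ages, where 0.127% of all probe sets did.

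In the cultures the 3 Car8 probe sets parted. With 1427482_a_at, Cstb-/- cultures read 0.89, 0.11 and 1.03, against 0.00, -0.61, -0.63 and -0.65 in control cultures. Cstb-/- arrays 1 and 3, those with the widest spread over all probe sets, were high and array 2 lay just above the highest control array; the part of this spread in the values was not tested. The difference was 1.15 (SE 0.24, 95% interval 0.60 to 1.71, limma adjusted p = 0.0243), 2.22-fold, which missed the threshold of 0.01. It passed it without Cstb-/- array 2 (1.43, limma adjusted p = 0.00518) and had an adjusted p of 0.102 without Cstb-/- array 3. It also passed with array weights (limma adjusted p = 0.00469) and with 1 fit over all arrays (4.69e-05), and not with the methods' t-test (0.136 over all probe sets). The probe sets 1424958_at and 1457904_at differed by -0.10 (95% interval -0.29 to 0.10) and 0.02 (95% interval -0.13 to 0.17). On the same array, 1427482_a_at lay 0.10 to 1.03 above the mean of these 2 in Cstb-/- cultures, against -0.68 to 0.00 in control cultures, which was not tested for the same reason.

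**Figure D4:**
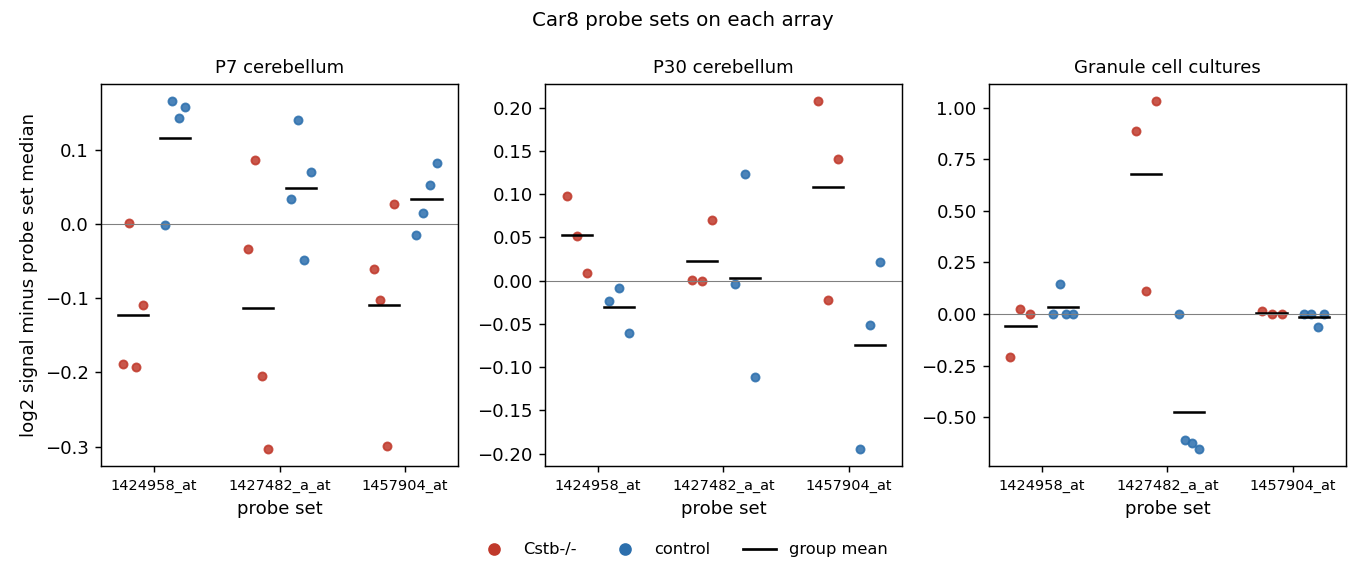
Values of the 3 Car8 probe sets (x axis) on each array (points, log2 signal minus the probe set median; bars, group means) for Cstb-/- (red) and control (blue) arrays. In the cultures 1427482_a_at lies between 0.11 and 1.03 on Cstb-/- arrays and between -0.65 and 0.00 on control arrays, while the other 2 probe sets stay near 0; the y axes differ in scale.

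The synaptic and signalling members had 1 or 2 probe sets each. Homer3 encodes a scaffold that ties metabotropic glutamate receptors to calcium stores beneath the spines. Its probe set read -0.05, 0.04, 0.06 and 0.14 in P7 Cstb-/- cerebella, against -0.13, -0.04, -0.14 and 0.10 in P7 control cerebella. The differences were 0.10 at P7 (95% interval -0.07 to 0.27), 0.15 at P30 (95% interval -0.06 to 0.35) and 0.35 in the cultures (95% interval -0.03 to 0.73). In the cultures the value of 0.61 on Cstb-/- array 1 stood out, with 0.00 and 0.05 on the other Cstb-/- arrays and -0.42 to 0.00 on control arrays.

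Slc1a6 encodes EAAT4, the glutamate transporter of Purkinje cell spines, and Ppp1r17 encodes G-substrate, an inhibitor of protein phosphatases that is phosphorylated by cGMP-dependent protein kinase. Both were set apart at P7 by a single array, Cstb-/- array 2. Slc1a6 read -0.05, 0.60, -0.03 and -0.12 in P7 Cstb-/- cerebella, against 0.03, 0.33, -0.05 and 0.08 in control cerebella. Ppp1r17 read 0.03, 0.55, -0.25 and -0.03 in P7 Cstb-/- cerebella, against -0.12, 0.14, 0.27 and -0.03 in control cerebella.

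With these spreads the P7 differences of 0.01 for both genes had intervals of -0.32 to 0.33 for Slc1a6 and -0.32 to 0.34 for Ppp1r17. Leaving out Cstb-/- array 2 gave -0.16 for Slc1a6 and -0.15 for Ppp1r17, and the median over the 25 member probe sets moved to -0.08. At P30 the differences were 0.09 for Slc1a6 (95% interval -0.19 to 0.38) and 0.06 for Ppp1r17 (95% interval -0.12 to 0.24). In the cultures they were 0.20 for Slc1a6 (limma adjusted p = 0.166) and 0.04 for Ppp1r17 (95% interval -0.12 to 0.19).

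Dner encodes a transmembrane protein with Delta and Notch-like repeats that Purkinje cells present to Bergmann glia. Its probe set 1423671_at was among the least variable, with differences of -0.03 at P7 (95% interval -0.19 to 0.13), -0.03 at P30 (95% interval -0.18 to 0.13) and -0.04 in the cultures (95% interval -0.22 to 0.15). The second, 1456379_x_at, differed by -0.16, -0.01 and 0.24 in the same order. Averaged over their probe sets, none of the 9 genes passed the threshold in any experiment or in the contrast of the ages. Of all 18193 genes, 4 passed it at P7, 53 at P30, 829 in the cultures and 43 in the contrast of the ages. Among the 9 genes, the lowest limma adjusted p values were those of Rora (0.0182) and Car8 (0.0322) in the cultures.

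**Figure D5:**
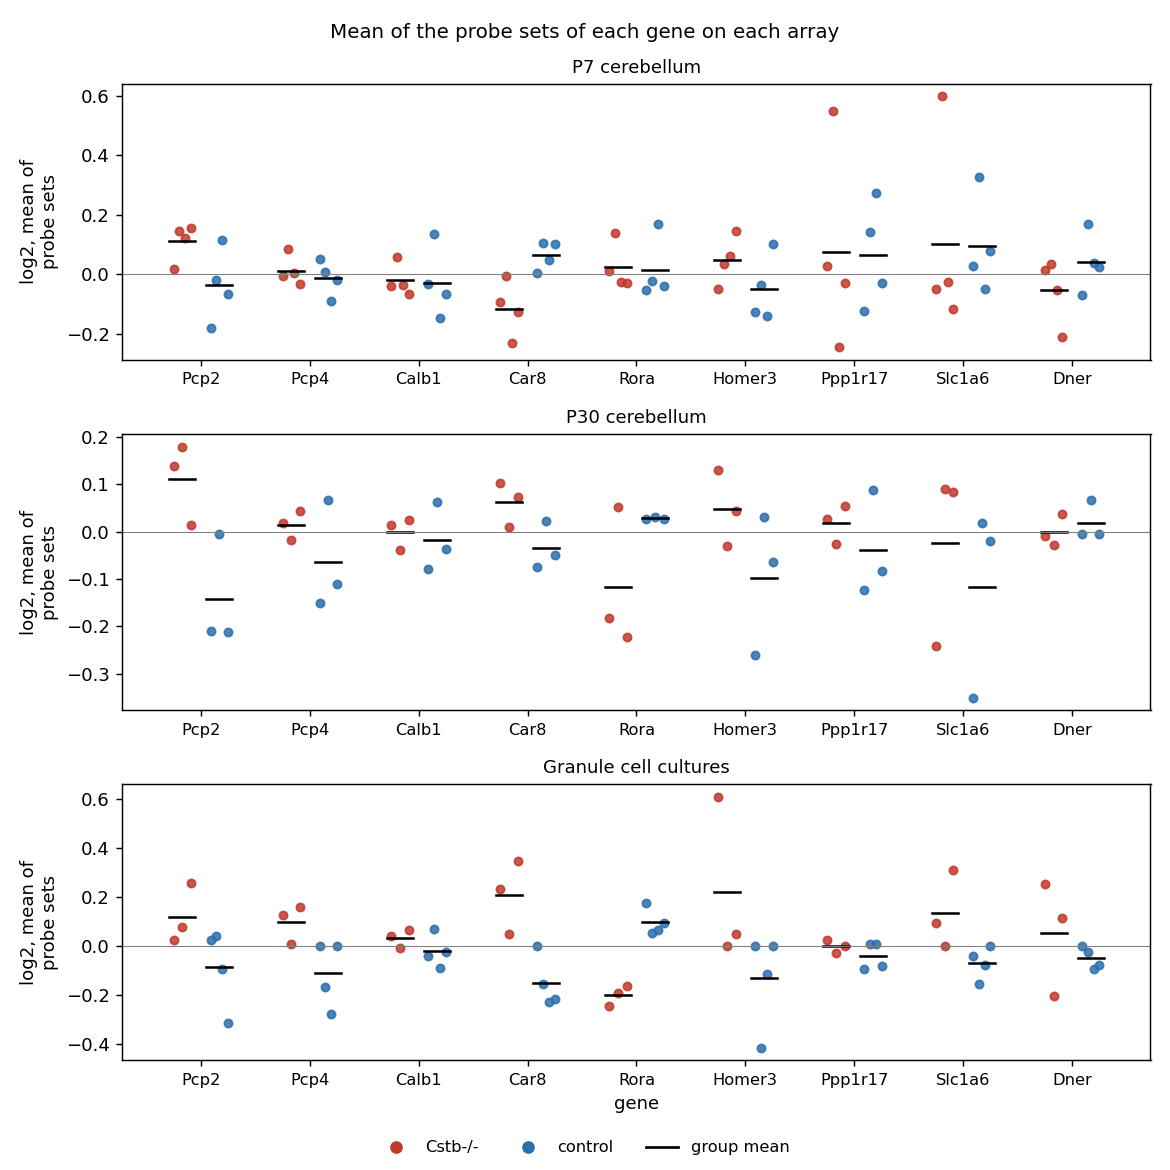
Mean over the probe sets of each of the 9 Purkinje cell marker genes (x axis) on each array (points, log2; bars, group means) for Cstb-/- (red) and control (blue) arrays in P7 cerebella, P30 cerebella and granule cell cultures. The genotypes do not overlap for Car8 at P7, for Pcp2 at P30 and for Pcp4, Car8 and Rora in the cultures. They overlap or touch for the other genes. No share over all genes was counted for this. At P7 the top points of Slc1a6 (0.60) and Ppp1r17 (0.55) are Cstb-/- array 2. The y axes differ in scale.

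Arrays also differed within a genotype. A score was taken as the mean over the 9 genes, and values were set relative to the mean of each genotype and age over the 14 cerebellar arrays. The median correlation of the 25 member probe sets with this score, of which they are part, was 0.53, highest for Slc1a6 (0.87) and Ppp1r17 (0.86) and lowest for 1441085_at of Rora (-0.34). The median was 0.15 over 86 probe sets of other Purkinje cell genes, close to those of cerebellar interneurons (0.14) and granule neurons (0.10), and -0.01 over all probe sets. The other 7 lists of cell types lay between -0.25 for oligodendrocytes and 0.03 for Bergmann glia and astrocytes. Outside the members, the probe sets most like the score belonged to Wdr26 (0.90), Fyttd1 (0.87), Psmc6 (0.86), 4931428L18Rik (0.85), Psip1 (0.85) and Dda1 (0.85). The points share arrays. Before values were set relative to the group means, P7 Cstb-/- array 2 had the highest score (0.18).

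A list of 42 other genes used in or known from Purkinje cells was set beside the members, and 34 of them were matched, with 86 probe sets. At P7 0 of the 86 changed, 55 were above 0 and 31 below, and the median difference was 0.04. The 4 genes with the smallest unadjusted p were Gng13 (0.53, SE 0.07, limma adjusted p = 0.0922), a G protein subunit, Pvalb (0.72, SE 0.12, adjusted p = 0.137), the calcium buffer parvalbumin, Rgs8 (0.57, SE 0.12, adjusted p = 0.238), a regulator of G protein signalling, and Foxp2 (-0.53, SE 0.12, adjusted p = 0.269), a transcription factor, all by limma.

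The arrays of these 4 probe sets, which were picked by their p, did not overlap, as was the case for 11 of the 86 and for 5.65% of all probe sets. Pvalb and Rgs8 had no further probe set, the second of Gng13 differed by 0.12, and the 5 others of Foxp2 differed by -0.37 to 0.00. Pvalb read 0.17, 0.20, 0.16 and 0.15 in P7 Cstb-/- cerebella, against -0.74, -0.58, -0.15 and -0.75 in control cerebella. Gng13 read 0.34, 0.16, 0.32 and 0.26 in P7 Cstb-/- cerebella, against -0.23, -0.28, -0.16 and -0.37 in control cerebella. Pvalb is also made by molecular layer interneurons. The paper lists Pvalb and Rgs8 among the genes higher at P7. At P30 the same probe sets differed by 0.01 for Pvalb, 0.12 for Gng13, 0.10 for Rgs8 and 0.39 for Foxp2, none past the threshold.

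At P30 0 of the 86 probe sets changed, with 45 above 0 and 41 below and a median of 0.01. The smallest unadjusted p values belonged to Clmn (0.30, limma adjusted p = 0.389), Arhgef33 (0.44 and 0.37 with 2 probe sets), Cck (0.39) and Kcnma1 (-0.23). Clmn encodes a membrane protein of the calponin family, Cck the neuropeptide cholecystokinin and Kcnma1 a calcium-activated potassium channel. The other probe sets of Clmn differed by -0.02 to 0.22 and those of Kcnma1 by -0.19 to 0.18. In the cultures 1 of the 86 changed, against 2.54% of all probe sets, and it belonged to Aldoc (zebrin II), the aldolase that marks alternating stripes of Purkinje cells and that astrocytes also make. This probe set read 0.42, 0.55 and 0.50 in Cstb-/- cultures, against 0.00, -0.31, -0.11 and -0.18 in control cultures, a difference of 0.64 (SE 0.09, limma adjusted p = 0.00532), and the second Aldoc probe set differed by 0.40 (limma adjusted p = 0.0799), not past the threshold. The median over the 86 probe sets in the cultures was -0.06, with 32 above 0 and 54 below.

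Markers of other cells moved with genotype in each experiment, and their part in the values above was not tested. At P7 the 34 oligodendrocyte probe sets were all above 0, with a median of 0.44 and array means of 0.12 to 0.52 in Cstb-/- cerebella against -0.46 to -0.06 in control cerebella, and granule neuron probe sets had a median of 0.18. Choroid plexus probe sets had a median of -1.69 at P7, with array means of -2.11 to -0.06 in Cstb-/- cerebella against 0.04 to 0.39 in control cerebella. None of the oligodendrocyte, granule neuron or choroid plexus probe sets passed the threshold for a change at P7. At P30 microglial probe sets had a median of 0.62, with array means of 0.38 to 0.58 in Cstb-/- cerebella against -0.61 to -0.38 in control cerebella, and 10 of 19 changed. Bergmann glia and astrocyte probe sets at P30 had a median of 0.17. Their array means were 0.15 to 0.20 in Cstb-/- cerebella, against -0.16 to -0.15 in control cerebella. Of these 34 probe sets 3 changed, all of 1 gene, where 0.144% of all probe sets changed at P30. In the cultures the 22 meningeal fibroblast probe sets had a median of 1.19, with array means of 1.05 to 1.12 in Cstb-/- cultures against -0.17 to -0.06 in control cultures, and 12 of them changed, among them both probe sets of the collagen Col1a1 and 2 of the 3 of Col1a2. Bergmann glia and astrocyte probe sets had a median of 0.43 and granule cell precursor probe sets one of 0.29 in the cultures, where oligodendrocyte probe sets had one of -0.30 with 30 of 34 below 0.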

How the data were processed

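RNA of mouse cerebella and cultured granule cells had been hybridised to Affymetrix whole-genome mouse arrays, 1 sample per array. The deposited values are log2 signals that the authors summarised by RMA (version not given in the sources used here) and from which they subtracted the median of each probe set, which tests on the files placed within each experiment (largest remaining median 5e-07). Signal levels and background flags were not used here, so no filter on dim probe sets was possible, and the number of arrays limits the precision. Control probe sets, 64 of 45101, were left out. Of those tested, 34945 carried 1 gene symbol in the platform annotation, 932 several and 9160 none.

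Groups followed the labels. limma 3.58.1 (R 4.3.3) was fitted within each experiment, 2-sided, with Benjamini-Hochberg adjustment over all probe sets, and the script was tested on simulated data. The ages were compared in 1 fit of 4 groups. The alternatives were the methods' unpaired t-test, no fold threshold, robust variance, array weights, 1 fit over all arrays, labelled sex as a covariate, array medians subtracted, gene means, the replicate number as a block and each array left out. Tables and figures were made with Python 3.11.15, numpy 2.4.6, pandas 2.3.3, SciPy 1.17.1 and matplotlib 3.10.9.

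Every probe set of the 9 members was reported, with the other Purkinje cell genes that changed or were among the 4 smallest p at P7 or P30, the first 2 listed genes of the meningeal list and the 6 genes most like the member score. The members and lists were chosen with earlier results of these data known. Promoter sequence came from RefSeq (GRCm38.p6).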

Additional observations from a re-analysis of the deposited data

Results flagged for a closer look

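In 9 of the 75 groups of 4 arrays formed by the 25 member probe sets, 1 array lay far from the other 3, against 9.37% of such groups over all probe sets; chance gives about 1 in 20 where values are not tied. Of the 25 groups each, these were 5 in control cultures, where ties are frequent and the background was 14.4%, 2 in P7 Cstb-/- cerebella (6.43%) and 2 in P7 control cerebella (7.31%). On control culture array 7 these were Calb1 1456934_at (-0.25, the others 0.00 to 0.03), Car8 1457904_at (-0.064, the others all 0.00) and Rora 1458145_at (0.00, the others 0.39 to 0.47). On P7 Cstb-/- array 2 they were Rora 1455165_at (0.26, the others -0.04 to 0.01) and Slc1a6 1418933_at (0.60, the others -0.12 to -0.03). The remaining 4 arrays were control culture array 5 for Car8 1424958_at (0.14, the others -0.00 to 0.00), control culture array 4 for Car8 1427482_a_at (0.00, the others -0.65 to -0.61), P7 control array 1 for Car8 1424958_at (-0.00085, the others 0.14 to 0.17) and P7 control array 3 for Rora 1458129_at (0.67, the others -0.03 to 0.04).

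The sign of the difference between Cstb-/- and control arrays in the cultures was opposite to that at P7 for 11 of the 25 member probe sets and to that at P30 for 5. For 4 of the 25, every Cstb-/- culture array lay on one side of the control mean and every Cstb-/- cerebellum of an age on the other. These contrasts between experiments were not tested, and no share over all probe sets was counted for them or for the signs. Pcp2 1424944_at differed by -0.080 in the cultures, against 0.34 at P7 and 0.52 at P30. Calb1 1448738_at differed by 0.16 in the cultures, against -0.21 at P7. Car8 1424958_at differed by -0.10 in the cultures, against 0.08 at P30, and Car8 1457904_at by 0.021 in the cultures, against -0.14 at P7. For both Car8 probe sets the control culture mean rests on 1 array. It was array 5 for 1424958_at (0.14) and array 7 for 1457904_at (-0.064), with the other control culture arrays at 0.00 or close to it.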

How the results depend on the processing

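At P7, 0 of the 25 member probe sets changed under every alternative, although the paper's own list of P7 changes includes Pcp2 1424944_at. The P7 median of 0.01 became -0.080 with labelled sex as a covariate, and ranged from -0.077 (without Cstb-/- array 2) to 0.027 with single arrays left out. At P30 the count of 0 became 1, Pcp2 1424944_at, with array weights, with 1 fit over all arrays and with the methods' t-test past the fold, and the median of 0.02 became 0.079 over gene means and ranged from -0.012 to 0.081 (without control array 2) with single arrays left out. In the cultures the count of 1 became 0 with the methods' t-test over all probe sets or past the fold and over gene means, and 2 with array weights and with 1 fit over all arrays. A further fit left out the 4 culture arrays of doubtful sex. It was chosen after seeing the data and changes both the arrays and the form of the fit. Because it leaves 1 Cstb-/- culture array, no count is given for it. With single culture arrays left out the culture count was 0 or 1, and without Cstb-/- array 2 the 1 was Car8 1427482_a_at. The culture median of 0.02 became 0.20 over gene means and ranged from -0.01 to 0.05 with single arrays left out. The causes were not tested. Among single member probe sets, 3 of 375 alternatives at P30 gained a call, 8 of 400 in the cultures lost one and 4 gained one, and 0 of 450 at P7 and 0 of 500 in the contrast of the ages did either.

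Over all probe sets the count of 3 at P7 became 1 with the methods' t-test, 203 past the fold, 17 with array weights, 16 with 1 fit over all arrays, 1108 with the sex covariate, 20 without Cstb-/- array 5 and control array 3 (chosen after seeing the data) and 3 to 38 with single arrays left out. The 65 at P30 became 1, 210, 226, 107 and 29 with the first 5 of these settings, and 29 to 76 with single arrays left out. At P30 only Cstb-/- array 1 was labelled female, so the sex covariate there equals leaving out that array, with the same count of 29. The 1144 in the cultures became 32, 628, 2828 and 5725 with the first 4, and 302 to 2685 with single arrays left out. The fit without the 4 culture arrays of doubtful sex is given no count over all probe sets either. The 57 in the contrast of the ages became 456 with array weights, 134 with the sex covariate and 39 to 114 with single arrays left out.

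With the replicate number as a block, the member counts were 0 at P7, P30 and in the contrast of the ages, the medians 0.01 and 0.02 at P7 and P30, and the counts over all probe sets 2, 49 and 43. Arrays of the same number deviated from their group means with correlations of 0.01 to 0.17 at P7 and -0.18 to -0.03 at P30, so the numbers were not taken as pairs. No paired analysis was possible in the cultures because the genotypes share no replicate number.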
